A study of Mus musculus with 2 samples.

Results

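The subunits of oxidative phosphorylation were examined in mouse pluripotent cells that were brought from the primed towards the naive state by an activator of AMPK, the kinase that senses cellular energy. The members are the 114 genes, of 33963 in the table, whose symbol starts with Nduf, Sdha, Sdhb, Sdhc, Sdhd, Uqcr, Cox4, Cox5, Cox6, Cox7, Cox8, Atp5, mt-Nd, mt-Co, mt-Cytb or mt-Atp. A further 14 genes with such a symbol were left out because it contains -ps, the mark of a pseudogene. Of the members, 101 are nuclear genes and 13 are encoded by mitochondrial DNA. The nuclear members comprise 89 subunits and 12 assembly factors of complexes I and II. The prefixes do not catch Cyc1, a subunit of complex III, which was counted with the electron carriers.

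Oxidative phosphorylation makes ATP in the inner mitochondrial membrane. Complex I takes electrons from NADH and complex II from succinate, complex III passes them through cytochrome c to complex IV, and complex IV gives them to oxygen, while complex V uses the resulting proton gradient to make ATP. Mitochondrial DNA encodes core subunits of complexes I, III, IV and V, whereas complex II is wholly nuclear. Naive embryonic stem cells are known to respire as well as to use glycolysis, and primed epiblast stem cells are known to rely mainly on glycolysis.

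Reads per gene were counted in single cells of 5 populations, pooled in 1 library. The naive population was mouse embryonic stem cells of the Rex1-GFP line kept in 2iL, that is, with inhibitors of MEK and GSK3 and the cytokine LIF. The labels give 129/Ola as the strain. The primed population was epiblast stem cells of the Oct4GIP line, in which GFP reports Oct4, grown with FGF2 and activin. The study's methods put this line on fibronectin, and on mouse embryonic fibroblast feeders for the reversion. Its authors took the Oct4-negative cells of the primed population for feeder cells. Oct4GIP cells treated on feeders with the AMPK activator AICAR together with LIF were taken at day 8 (d8) and day 16 (d16), and reverted d16 cells were taken again after 10 passages in 2iL (d16+10p). Each population was 1 tagged sample of 1 line, without replicates. The naive line differs from the Oct4GIP line of all other populations. In every comparison with naive cells, the state therefore cannot be told apart from the line. The d16 cells were divided at 1000 Dppa5a reads per 1000000 reads of the cell into Dppa5a-low and Dppa5a-high cells, since Dppa5a is a marker of naive cells.

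Per the study, 500 cells each of the naive and primed lines, 9000 each of d8 and d16, and 1000 of d16+10p were loaded, and the tags were carried by antibodies to the surface proteins CD9 and CD63. The table held 801 naive, 1826 primed, 9627 d8, 3037 d16 Dppa5a-low, 1278 d16 Dppa5a-high and 1151 d16+10p cells, so every tag but d16 holds more cells than were loaded, and 0 barcodes occurred under more than 1 tag. The median depth ranged from 8691 reads per cell in d16 Dppa5a-low cells to 21551 in d16+10p cells. A level is the summed reads of a gene or a list in a population per 1000000 reads of all genes (RPM), with an exact 95% Poisson interval. The intervals cover only the counting error of independent reads. Amplified reads of 1 molecule are not independent, so the intervals are too narrow, and they hold no spread between samples. A level is a share of the RNA of a population. Within a population, fewer cells of a type and less RNA per cell of that type cannot be told apart. No test was possible with 1 sample a population, and "past 1.5-fold" denotes only the size of a ratio, among genes at 50 RPM or more in either group and 100 reads or more over both.

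The labels were checked against marker genes. The summed level of 6 naive markers (Dppa5a, Zfp42, Klf2, Esrrb, Tfcp2l1 and Tdh) was 3649 RPM in naive, 289.7 in primed, 182 at d8, 210.4 in d16 Dppa5a-low, 4893 in d16 Dppa5a-high and 3891 in d16+10p cells, where Dppa5a itself had divided the d16 cells. Only 497 of the 1826 primed-tagged cells held Pou5f1, the gene of Oct4, at 200 RPM or more. The summed level of 6 fibroblast genes (Col1a1, Col1a2, Col3a1, Postn, Lum and Dcn) was highest in d16 Dppa5a-low cells, at 3479 RPM, followed by primed with 1676, d8 with 1365, naive with 677, d16+10p with 538 and d16 Dppa5a-high cells with 512. Markers of macrophages (2917 RPM), epithelium (2614) and smooth muscle (1160.4) were highest in d8 cells, at 262, 624 and 263 in d16 Dppa5a-high cells. Primed markers were at 455 RPM in primed cells and from 102 to 233 elsewhere, and neural markers ran from 102 to 262. Pluripotency markers ran from 390.5 RPM in d8 to 2331 in d16 Dppa5a-high cells. No marker of these lists was at 0 in any population. The ratios between whole populations move together with these markers of other cell types, whose part in them was not tested. The ratios in marker-positive cells (naive and d16+10p cells with Dppa5a at 1000 RPM or more, primed cells with Pou5f1 at 200 RPM or more) stand beside them where they differ.

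The nuclear members were low in primed, d8 and d16 Dppa5a-low cells and were at the naive level in d16 Dppa5a-high and d16+10p cells. Their summed level was 20326 RPM in naive cells (95% interval 20259 to 20393), 18454 in primed cells, 17340 in d8 cells, 16663 in d16 Dppa5a-low cells, 20619 in d16 Dppa5a-high cells and 20852 in d16+10p cells (20797 to 20907). The order from high to low was thus d16+10p, d16 Dppa5a-high, naive, primed, d8 and d16 Dppa5a-low. Each of these neighbours differed by more than the counting error of independent reads, which does not measure the spread between samples. The largest of the 5 ratios compared was that inside the d16 population, where Dppa5a-high cells were 0.31 higher than Dppa5a-low cells on the log2 scale (0.30 to 0.31). In marker-positive cells the levels were 20843 RPM in naive, 19932 in primed and 21213 in d16+10p cells, so that the primed level lay closer to the naive level than in the whole population. With naive cells chosen by Dppa5a in the same way as the d16 Dppa5a-high cells, the naive level also lay above that of the latter, and the order of these groups turned.

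The mitochondrially encoded members ran in another order. They took 69989 RPM in naive, 64270.5 in primed, 61721 at d8, 74729 in d16 Dppa5a-low, 67653 in d16 Dppa5a-high and 63365 in d16+10p cells. The highest mitochondrial level and the lowest nuclear level thus fell in the same cells, the d16 Dppa5a-low cells. The ratio of mitochondrial to nuclear member reads was 4.49 there, 3.44 in naive, 3.48 in primed, 3.56 at d8, 3.28 in d16 Dppa5a-high and 3.04 in d16+10p cells. The highest share of mitochondrial reads in a cell of the table was 10.0%, and 29.1% of the d16 Dppa5a-low cells lay between 9 and 10% as against 6.69 to 14.2% in the other populations. Cells with a higher share are absent from the table, so the mitochondrial level is bounded from above.

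**Figure D1:**
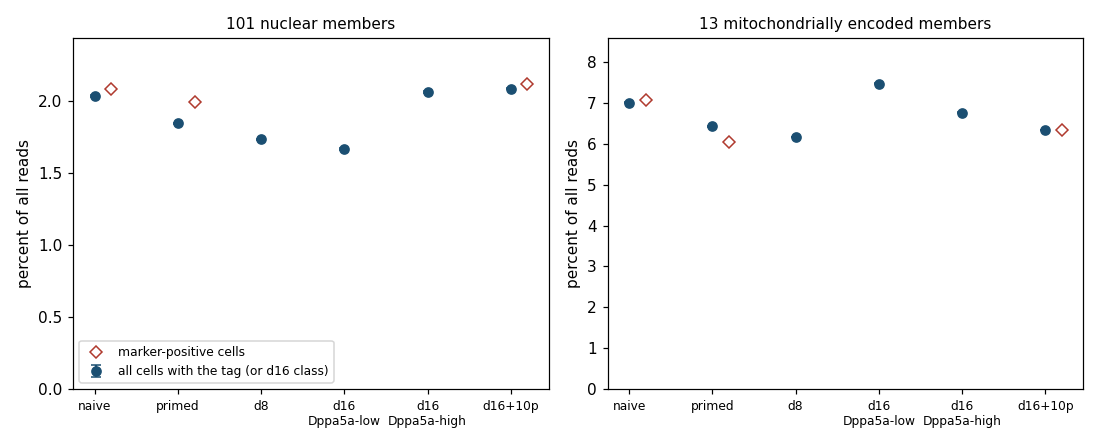
Summed level of the 101 nuclear members (left) and the 13 mitochondrially encoded members (right) as a percent of all reads of a population (y axis) in the 6 groups of cells (x axis). Filled points are all cells, with 95% Poisson intervals that are smaller than the points, and open diamonds are marker-positive cells; nuclear members are lowest in d16 Dppa5a-low cells (1.67%), where mitochondrially encoded members are highest (7.47%).

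The same contrast was seen cell by cell. The median nuclear share of a cell's reads was 2.02% in naive cells (quartiles 1.81 and 2.19%), 1.78% in primed, 1.66% in d8 and 1.60% in d16 Dppa5a-low cells (1.41 and 1.80%). It was 2.06% in d16 Dppa5a-high cells (1.89 and 2.25%) and 2.07% in d16+10p cells. The upper quartile of d16 Dppa5a-low cells thus lay below the lower quartile of d16 Dppa5a-high cells. After thinning each cell to 5000 reads, which left out 564 Dppa5a-low and 40 Dppa5a-high cells of d16, the medians were 1.60 and 2.06%. The mitochondrial shares overlapped more, with medians of 7.68% in d16 Dppa5a-low (6.43 and 8.59%) and 6.88% in d16 Dppa5a-high cells (5.86 and 7.75%).

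Primed cells were first compared with naive cells, the end points between which the reversion runs. Of the 101 nuclear members, 80 passed the level rule, 1 was at least 1.5-fold higher in primed cells and 4 were at least 1.5-fold lower, that is, 1.25 and 5.0%. Over all 3914 genes that passed, 12.0% were at least 1.5-fold higher and 8.51% lower, so the members' share was below that of all genes in both directions. With the level rule set on the mean of the 6 groups instead, 1 of 78 members (1.28%) was higher and 4 (5.13%) lower. Of all genes, 11.1 and 6.68% were so by that rule, and the gap downwards was smaller. The sum was 0.14 lower on the log2 scale (95% interval of the log2 ratio -0.15 to -0.13), and the median member stood at -0.10 beside 0.05 for all genes. The log2 ratio of the sum was -0.065 in marker-positive cells and -0.23 with TMM scaling, which centres the populations on a trimmed mean of their log ratios. Of the 80 members, 55 were below 0. Among the 13 mitochondrial members, none was past 1.5-fold. In marker-positive cells 3 nuclear members were past 1.5-fold upwards and 4 downwards, beside 11.5 and 10.4% of all 3821 genes. Of these, Ndufaf4 and Cox7a1 passed the level rule only through the group where they are high. With the rule on the mean of the 6 groups, 3 of 78 (3.85%) were higher and 3 (3.85%) lower, beside 9.98 and 7.67% of all genes.

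Of the members that passed, the furthest below the naive level was Atp5g1, which encodes a c subunit of the ATP synthase rotor. Its level was 470.5 RPM in naive, 229.8 in primed, 181 at d8, 178 in d16 Dppa5a-low, 365 in d16 Dppa5a-high and 483 in d16+10p cells. The log2 ratio of primed to naive cells was -1.03 (-1.08 to -0.99). Cox5a, a subunit of complex IV, was at 492 RPM in naive, 287 in primed, 305 at d8, 209.7 in d16 Dppa5a-low, 448 in d16 Dppa5a-high and 524 in d16+10p cells. Both genes were thus higher in naive, d16 Dppa5a-high and d16+10p cells than in the other groups. The share of all genes that split the groups in this way is not given here, so the split is only a description of these genes. Uqcr10, a small subunit of complex III, stood at -0.75 in primed against naive cells (-0.81 to -0.70), Atp5c1, the gamma subunit that forms the central stalk of ATP synthase, at -0.60 (-0.64 to -0.55), and these 4 were the members past 1.5-fold. Next was Ndufb2 of complex I, at -0.50 (-0.59 to -0.43). In marker-positive cells the log2 ratio was -0.91 for Atp5g1, -0.81 for Cox5a and -0.67 for Uqcr10, whereas Atp5c1, at -0.56, was no longer past 1.5-fold, and Cox7a1, described below, was.

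In the other direction, Cox6b2 was the only member past 1.5-fold. It encodes a form of a complex IV subunit otherwise known from testis, whose counterpart in most tissues is Cox6b1. Cox6b2 was at 88.6 RPM in naive, 149 in primed, 169 at d8, 124 in d16 Dppa5a-low, 150.4 in d16 Dppa5a-high and 95.7 in d16+10p cells. It was lowest in the populations kept in 2iL, and d16 Dppa5a-high and primed cells did not differ beyond counting error. In primed cells with Pou5f1 it was at 111 RPM, and d16 Dppa5a-high cells stood above these by a log2 ratio of 0.43 (0.34 to 0.53). The log2 ratio of primed to naive cells was 0.74 (0.66 to 0.83). Below the threshold followed Ndufaf4, an assembly factor of complex I, at 0.48 (0.37 to 0.60), Atp5g2, another gene for the c subunit, at 0.44 (0.38 to 0.50), Atp5pb, the b subunit of the ATP synthase stalk, at 0.42 (0.38 to 0.46) and Cox7a2l, which joins complexes III and IV into supercomplexes, at 0.37 (0.30 to 0.43). Atp5g1 and Atp5g2 thus differed in direction although their mature products are known to be identical, while Atp5g3 was at 353 RPM in naive and 292 in primed cells. In marker-positive cells, Cox6b2 (0.61), Ndufaf4 (0.82) and Atp5pb (0.71) passed 1.5-fold.

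The members differed little between d8 and primed cells. Between d8 and primed cells, 79 nuclear members passed the level rule, and none was 1.5-fold higher or lower, whereas over all 3933 genes 11.0% were higher and 10.7% lower. The nuclear sum was lower by 0.09 on the log2 scale, with a median member of -0.08 beside -0.02 for all genes, and with TMM scaling it was at -0.013. The mitochondrial sum was at -0.06 and turned to 0.02 with TMM scaling and to 0.03 against primed cells with Pou5f1, so its direction is not settled. None of the 13 mitochondrial members was past 1.5-fold. The extremes were Cox7a2l, at 0.32 (0.28 to 0.36), and Atp5pb, at -0.38 (-0.41 to -0.36). The next members above 0 were Cox6a1 at 0.20, Cox6b2 at 0.19, Atp5l at 0.17 and Ndufa3 at 0.15, and the next below 0 were Ndufc1 at -0.36, Cox7c at -0.35 and Ndufa9 and Ndufaf4, both at -0.34. Against primed cells with Pou5f1 only, the sum was at -0.20, and 1 nuclear member of 79 was past 1.5-fold upwards (Cox6b2) and 6 downwards (Cox7c, Ndufaf4, Atp5pb, Atp5g1, Ndufc1 and Atp5k). These are 1.27 and 7.59% of the members beside 21.8 and 20.6% of all 4099 genes, a smaller share in both directions. Most primed-tagged cells (1329) lay below the Pou5f1 limit.

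Between d16 Dppa5a-high and primed cells, 81 nuclear members passed, of which 9 were at least 1.5-fold higher and none was lower. Over all 4047 genes, 12.7% were higher and 11.9% lower, so the share of higher members (11.1%) was close to that of all genes, and only that of lower members was below it. The sum was 0.16 higher on the log2 scale (0.15 to 0.17), and the median member stood at 0.10 beside -0.02 for all genes. Besides Cox7a1, described below, the 8 other members were Ndufb4c (0.76), Ndufv3 (0.75), Ndufs6 (0.70), Ndufa7 (0.69), Ndufb4 (0.68) and Ndufc2 (0.66), all of complex I, together with Atp5g1 (0.66) and Cox5a (0.64). Ndufs6 was at 138 RPM in naive, 101 in primed, 90.6 at d8, 92.2 in d16 Dppa5a-low, 164 in d16 Dppa5a-high and 139.9 in d16+10p cells, again in the pattern of Atp5g1 and Cox5a. Lowest were Cox7a2l at -0.52 (-0.59 to -0.46), Ndufs4 at -0.50, Cox6b1 at -0.44, Uqcrh at -0.38 and Atp5g2 at -0.21. Cox7a1 and Ndufb4c passed the level rule only through the Dppa5a-high cells, where they are high. With the rule set on the mean of the 6 groups instead, which was added after the values were seen, 7 of 78 members (8.97%) were higher, beside 9.22% of all genes, and none was lower, beside 11.7%. Against primed cells with Pou5f1, 4 members (4.94%) were past 1.5-fold upwards (Cox7a1, Ndufv3, Ndufb4c and Ndufc2) beside 12.1% of all 3943 genes, none was lower beside 8.62%, and the sum was 0.05 higher. Ndufb4 and Ndufb4c are near-identical, and reads could be shared between them.

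The d16 population offered a comparison within 1 culture. Of 81 nuclear members, 16 were at least 1.5-fold higher in Dppa5a-high than in Dppa5a-low cells and 2 were lower. These are 19.8 and 2.47% of the members, beside 24.9 and 24.1% of all 4373 genes, and 61 members were above 0 and 20 below. The median member was at 0.24 beside 0.07 for all genes. Cox7a1, Ndufaf4, Ndufb4c and Ndufa4l2 passed the level rule only through the class where they are high. With the rule on the mean of the 6 groups, 14 of 78 members (17.9%) were higher and 1 (1.28%) was lower, beside 23.1 and 18.8% of all genes, and the median was 0.23 beside 0.11. The nuclear parts of all 5 complexes had the same sign. The nuclear subunits were higher by a log2 ratio of 0.25 in complex I (0.24 to 0.26), 0.16 in complex II (0.12 to 0.19), 0.20 in complex III (0.18 to 0.21), 0.32 in complex IV (0.31 to 0.33) and 0.38 in complex V (0.37 to 0.39), and the assembly factors by 0.47 (0.43 to 0.52). Fibroblast genes moved with these ratios, as given above. When Dppa5a-low cells were divided further at 1000 RPM of Col3a1, the median nuclear share was 1.60% in both classes, of 719 and 2318 cells with fibroblast genes at 14048 and 743 RPM.

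After Cox7a1, the largest ratios in d16 Dppa5a-high over Dppa5a-low cells were those of Cox5a (1.09, 1.05 to 1.14), Atp5g1 (1.03, 0.99 to 1.08), Atp5b (1.03, 1.00 to 1.05) and Ndufaf4 (0.96, 0.87 to 1.08). Atp5b, the catalytic beta subunit of ATP synthase, was at 1250.0 RPM in naive, 962 in primed, 852.5 at d8, 705 in d16 Dppa5a-low, 1435.5 in d16 Dppa5a-high and 1474 in d16+10p cells. The naive, d16 Dppa5a-high and d16+10p cells were thus above the other whole populations. In primed cells with Pou5f1, Atp5b was at 1139 RPM, between the levels of the whole primed and naive populations. The other members past 1.5-fold were Cox7c (0.88), Ndufs6 (0.82), Ndufa7 (0.79), Ndufa4 (0.75), Ndufb4c (0.74), Cox6c (0.65), Ndufa11 (0.63), Cox7b (0.62), Atp5a1 (0.61), Uqcrc1 (0.59) and Ndufb4 (0.59). Lower in Dppa5a-high cells were Ndufa4l2 (-1.69, -1.82 to -1.60) and Cox7a2l (-0.60, -0.67 to -0.55), followed by Uqcrh (-0.42), Cox6b1 (-0.33) and Ndufa3 (-0.25).

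**Figure D2:**
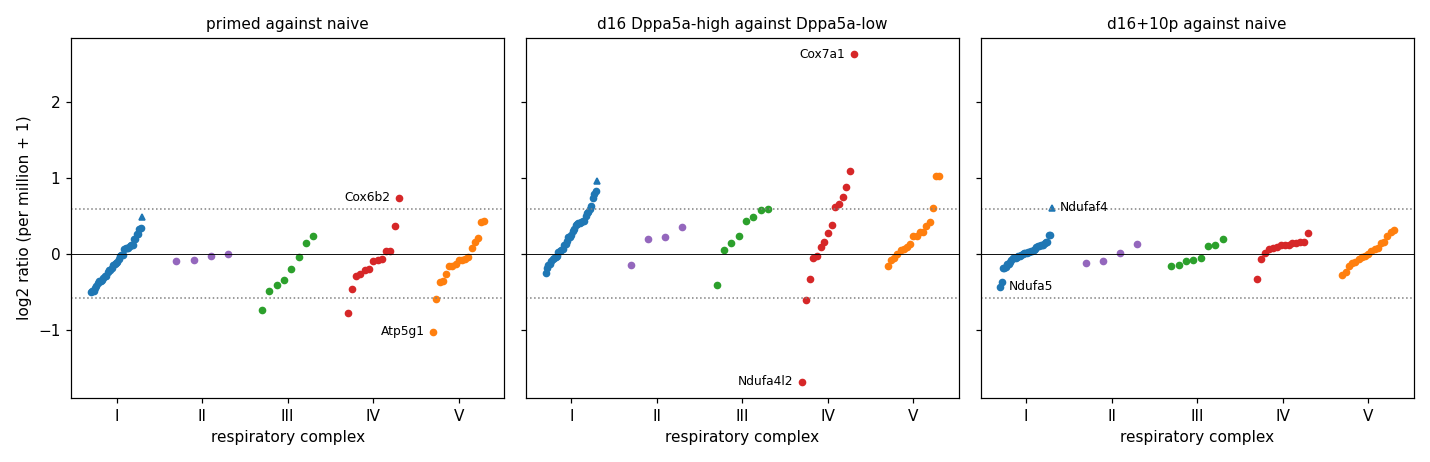
Log2 ratios (y axis, RPM plus 1) of the nuclear members that passed the level rule, by respiratory complex (x axis), in 3 comparisons. Each circle is a subunit and each triangle an assembly factor, dotted lines mark 1.5-fold, and the extreme members are named; the d16 comparison spreads from -1.69 (Ndufa4l2) to 2.63 (Cox7a1), and that of d16+10p with naive cells from -0.43 (Ndufa5) to 0.61 (Ndufaf4).

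Cells expanded after reversion, of the Oct4GIP line, were close to naive cells, of the Rex1-GFP line, in their nuclear members. Of 81 members that passed, 1 was at least 1.5-fold higher in d16+10p cells and none was lower, beside 2.78 and 1.54% of all 3638 genes. The sum differed by 0.04 on the log2 scale (0.03 to 0.04) and by 0.017 to 0.051 under the other settings tried, and the median was 0.02 for members and for all genes alike. The member past the threshold was Ndufaf4, at 50.5 RPM in naive, 70.8 in primed, 55.6 at d8, 38.6 in d16 Dppa5a-low, 75.8 in d16 Dppa5a-high and 77.3 in d16+10p cells. Its log2 ratio was 0.61 (0.50 to 0.73), and d16+10p cells shared its level with d16 Dppa5a-high cells. All groups of the Oct4GIP line except d16 Dppa5a-low cells lay above naive cells in Ndufaf4, and line and state cannot be told apart here. Next above 0 were Atp5pb (0.31), Atp5a1 (0.28), Cox6c (0.28) and Ndufs8 (0.25), and furthest below 0 were Ndufa5 (-0.43), Ndufs4 (-0.38), Ndufa4 (-0.33), Atp5c1 (-0.28) and Atp5d (-0.24).

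Some subunits of complex IV occur in alternative forms that replace each other between tissues, and the most uneven members were among these. Cox7a1, known as the form of heart and skeletal muscle (GRCm38, chr7:30184144-30186078, plus strand), was at 46.5 RPM in naive (43.3 to 49.8), 10.9 in primed (9.68 to 12.2), 10.1 at d8 (9.67 to 10.6), 15.4 in d16 Dppa5a-low (14.2 to 16.8), 101 in d16 Dppa5a-high (96.7 to 105) and 51.4 in d16+10p cells (48.7 to 54.3). Naive, d16 Dppa5a-high and d16+10p cells were thus high, d16 Dppa5a-high cells by far the highest, and the other groups low. The log2 ratio was 3.10 for d16 Dppa5a-high against primed cells (3.04 to 3.39), 2.63 against d16 Dppa5a-low cells (2.57 to 2.85) and 1.10 against naive cells (1.00 to 1.24). Against naive cells chosen by Dppa5a in the same way, Cox7a1 was still past 1.5-fold, but Cox6b2 had the larger ratio, at 1.04. In marker-positive cells, primed against naive, it was -1.94 (-2.29 to -1.75). Its counterpart Cox7a2 varied far less, between 262 and 341 RPM.

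The share of cells with a Cox7a1 read followed the level, which at this depth it largely restates. Among cells thinned to 5000 reads, a Cox7a1 read was found in 34.7% of d16 Dppa5a-high cells (exact binomial interval 32.0 to 37.4%), 18.5% of d16+10p cells (16.2 to 20.9%) and 16.4% of naive cells (13.8 to 19.3%). It was found in 3.99% of primed, 4.43% of d8 and 5.74% of d16 Dppa5a-low cells. Unthinned, these 6 shares stood at 58.1, 47.9, 42.3, 10.7, 12.5 and 10.4%. It was also found in 4.86% of the collagen-rich d16 Dppa5a-low cells (3.25 to 6.95%), at median depths of 8449 reads there and 14255 in d16 Dppa5a-high cells. Whether those cells lack the gene was not tested. The shares in primed, d8 and d16 Dppa5a-low cells lay within this interval. The Dppa5a-low cells are not uniform in this respect, as their Dppa5a classes show.

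Along Dppa5a, Cox7a1 was already higher just below the division at 1000 RPM. Its level was 13.2 RPM in the 2038 d16 cells with less than 100 RPM of Dppa5a, 14.7 between 100 and 250, 19.0 between 250 and 500 and 52.35 in the 111 cells between 500 and 1000. It was 112 in the 184 cells between 1000 and 2000, 97.8 in the 556 cells between 2000 and 4000, and 100.5 in the 538 cells above. Cells just below and just above the division were thus unlike in Cox7a1, and the level was flat above it. Cox5a passed from 267 to 372 RPM across the division and went on to 481 in the highest class, and Atp5b passed from 949 to 1233 and went on to 1495. The nuclear sum was 18457 RPM just below and 19242.5 just above the division.

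**Figure D3:**
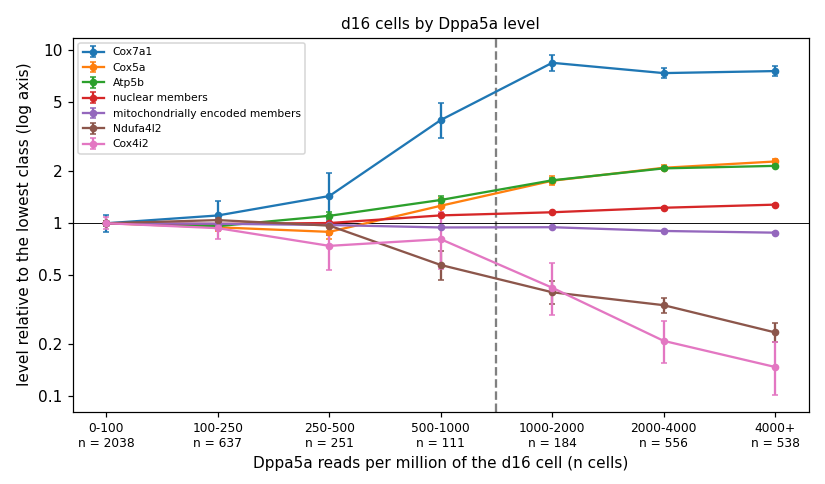
Level of 5 members and of the nuclear and mitochondrial sums in d16 cells by their Dppa5a level in RPM (x axis, with the number of cells), relative to the lowest class (y axis, logarithmic), with 95% Poisson intervals. The dashed line is the division at 1000 RPM; Cox7a1 is already at 52.35 RPM in the class below it against 13.2 in the lowest class, and Ndufa4l2 and Cox4i2 go the opposite way.

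A further pair of alternative subunits was highest where Cox7a1 was low, in d16 Dppa5a-low cells, though not in d8 or primed cells. Ndufa4l2, a relative of the complex IV subunit Ndufa4 that is known to be induced by hypoxia (chr10:127514967-127517154, plus strand), was at 17.45 RPM in naive, 37.85 in primed, 12.2 at d8, 132 in d16 Dppa5a-low (128 to 136), 40.3 in d16 Dppa5a-high and 14.3 in d16+10p cells. Cox4i2, the form of subunit 4 that is likewise linked to low oxygen (chr2:152754173-152765037, plus strand), was at 4.06 RPM in naive, 6.31 in primed, 2.88 at d8, 26.0 in d16 Dppa5a-low (24.3 to 27.7), 5.78 in d16 Dppa5a-high and 3.28 in d16+10p cells. The d16 Dppa5a-low cells did not overlap the other groups in either gene. In these cells Ndufa4 was lowest, at 275 RPM against 379 to 538 elsewhere, and Cox4i1 was also lowest (557 against 592 to 699.8). Both were higher where collagen was high, a division chosen after the values were seen: Ndufa4l2 was at 226 RPM in those with Col3a1 at 1000 RPM or more and at 108 in the others (log2 ratio 1.07, 0.98 to 1.16), and Cox4i2 was at 38.3 and 22.8. In thinned cells, a Ndufa4l2 read was found in 51.7 and 29.5% of these classes, in 15.3% of d16 Dppa5a-high cells and in 5.38% of d8 cells. In the primed tag, Ndufa4l2 was at 15.9 RPM in cells with Pou5f1 and 51.0 in the others, with a read in 6.7 and 16.6% of thinned cells. In the naive tag it was at 11.3 RPM in cells with Dppa5a and 45.9 in the others, with a read in 4.29 and 16.8%. The part of feeder cells in these levels was not tested.

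**Figure D4:**
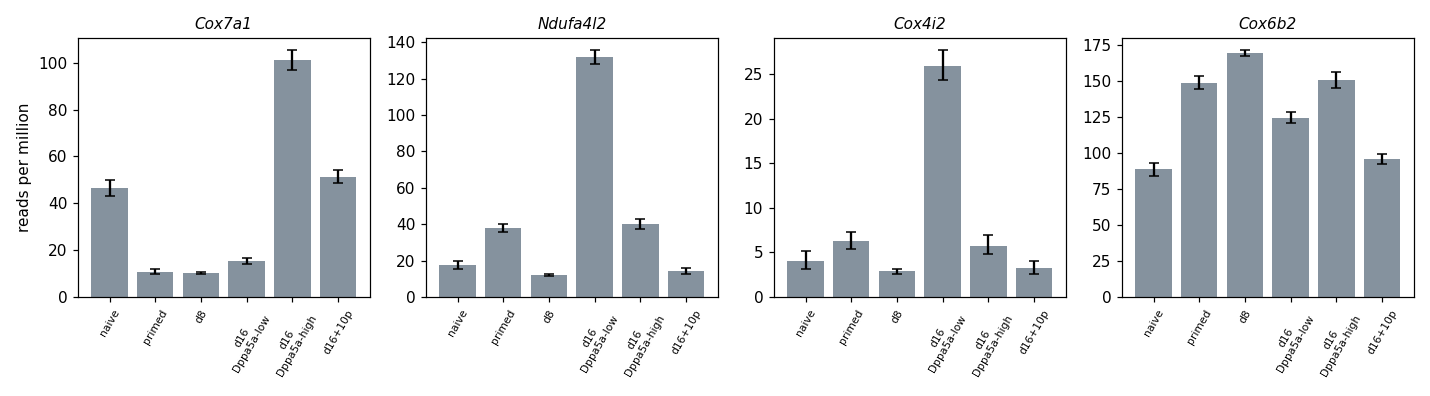
Levels in RPM (y axes, each from 0) of 4 alternative complex IV subunits in the 6 groups of cells (x axes), as bars with 95% Poisson intervals. Cox7a1 is highest in d16 Dppa5a-high cells (101), Ndufa4l2 (132) and Cox4i2 (26.0) in d16 Dppa5a-low cells, and Cox6b2 is lowest in naive (88.6) and d16+10p cells (95.7).

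The other alternative forms were rare. Cox6a2, Cox8b and Cox8c, known from muscle, from brown fat and muscle and from testis, stayed at or below 2.25 RPM in all groups. Their counterparts Cox6a1 and Cox8a ranged from 279.8 to 375 and from 474 to 545 RPM. Cox7b2, a relative of Cox7b that was singled out after its values were seen, was at 2.26 RPM in naive, 0.54 in primed, 0.59 at d8, 0.94 in d16 Dppa5a-low, 16.1 in d16 Dppa5a-high (14.4 to 18.0) and 5.19 in d16+10p cells. Like Cox7a1 it was highest in d16 Dppa5a-high cells, though below the level rule everywhere. Of the 18 listed alternative forms and their counterparts, the ATP synthase inhibitor Atpif1 included, 14 passed between the d16 classes, of which Cox7a1 and Ndufa4l2 did so only through the class where they are high. With the rule on the mean of the 6 groups, 2 of 12 (16.7%) were past 1.5-fold upwards and 1 (8.33%) downwards. Both shares were below those of all genes by that rule, 23.1 and 18.8%. Of the 12 assembly factors, 1 passed the level rule, Ndufaf4.

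The mitochondrially encoded members did not move as a block, and they differed along mitochondrial DNA, which is transcribed in long precursors. In d16 Dppa5a-high against primed cells, mt-Nd1 (chrM:2751-3707) and mt-Nd2 (chrM:3914-4951), the genes next to the ribosomal RNAs and subunits of complex I, were higher by 0.62 and 0.59 on the log2 scale. These 2 of 13 (15.4%) were past 1.5-fold upwards, close to the 12.7% of all genes. The further genes ran from -0.39 for mt-Atp6 to 0.16 for mt-Nd6. Against primed cells with Pou5f1, mt-Nd2 (0.79) and mt-Nd1 (0.62) again stood highest, and the distance to the next genes was smaller, with mt-Nd5 at 0.38, mt-Nd6 at 0.33, mt-Nd4l at 0.26 and mt-Nd4 at 0.23. There mt-Co1 turned from -0.02 to 0.18, and mt-Atp6 was lowest at -0.41. The mitochondrial ribosomal RNAs, which are no members and lie upstream of mt-Nd1, were higher by 0.41 together.

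The level of mt-Nd1 was 7371 RPM in naive, 6917 in primed, 5570 at d8, 7307 in d16 Dppa5a-low, 10611 in d16 Dppa5a-high and 7887 in d16+10p cells. That of mt-Nd2 was 3884, 4996, 4349, 6544, 7529 and 4981 in the same order. That of mt-Atp6, a subunit of complex V, was 9757, 8217, 7705, 7771, 6264 and 7659. The d16 Dppa5a-high cells were thus the highest group in mt-Nd1 and mt-Nd2 and the lowest in mt-Atp6. Within the d16 population, mt-Nd1 went from 7193 RPM in the lowest Dppa5a class through 9016 below and 9827 above the division to 11079 in the highest class.

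In d16 Dppa5a-high against Dppa5a-low cells, 3 mitochondrial members were higher (mt-Nd1 0.54, mt-Nd2 0.20 and mt-Nd3 0.16) and 10 lower, furthest mt-Co1 (-0.46), mt-Nd5 (-0.38), mt-Co3 (-0.36) and mt-Atp6 (-0.31). None passed 1.5-fold. The core subunits of complex IV, mt-Co1, mt-Co2 and mt-Co3, summed to a log2 ratio of -0.35 while the nuclear subunits of the same complex stood at 0.32. For complex V the ratios were -0.30 for mt-Atp6 and mt-Atp8 and 0.38 for the nuclear subunits. For complex III they were -0.21 for mt-Cytb and 0.20 for the nuclear subunits. Only in complex I did both sums have the same sign, at 0.13 and 0.25. Of its mitochondrial genes, mt-Nd4 (-0.20), mt-Nd4l (-0.17), mt-Nd5 and mt-Nd6 (-0.18) were nevertheless lower, and the 3 named above were higher.

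Between d16+10p and naive cells, mt-Nd2 was higher by 0.36 and mt-Nd1 by 0.10, while mt-Co1 (-0.39), mt-Co2 (-0.37), mt-Atp6 (-0.35) and mt-Atp8 (-0.28) were lower. The mitochondrial sum was at -0.14 (-0.15 to -0.14). The 6 remaining genes of complexes I and III, with mt-Co3, lay between -0.08 and 0.06. In primed against naive cells the sum was at -0.12 and, in marker-positive cells, at -0.23. The members of the whole populations ran from mt-Nd2 (0.36) and mt-Nd5 (0.33) through mt-Nd4l (0.21), mt-Nd6 (0.13) and mt-Nd4 (0.12) to mt-Co3 and mt-Nd1 (both -0.09), mt-Atp8 (-0.15), mt-Nd3 (-0.17), mt-Cytb (-0.18), mt-Co1 (-0.24), mt-Atp6 (-0.25) and mt-Co2 (-0.39). In d8 against primed cells they ran from mt-Co1 (0.18) to mt-Nd3 (-0.49).

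**Figure D5:**
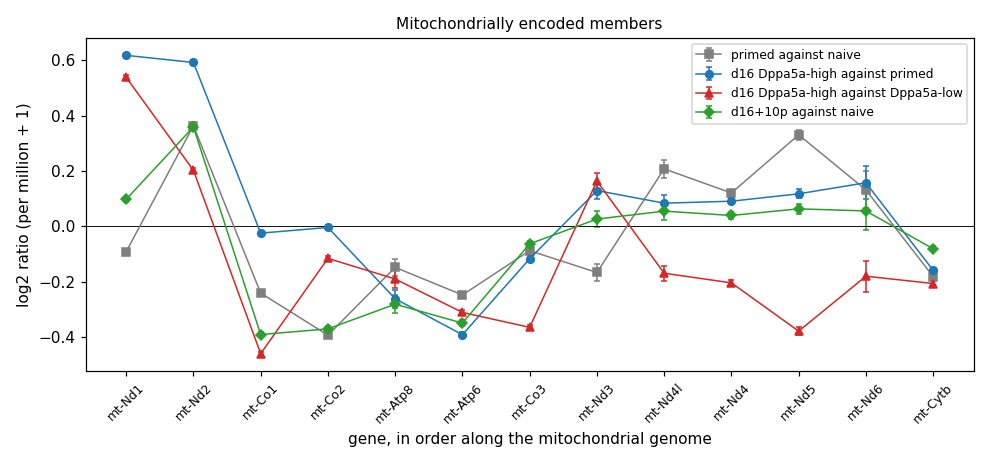
Log2 ratios (y axis, RPM plus 1) of the 13 mitochondrially encoded members in their order along mitochondrial DNA (x axis) in 4 comparisons, with 95% counting intervals. In d16 Dppa5a-high against primed cells mt-Nd1 (0.62) and mt-Nd2 (0.59) stand above the other genes, which lie between -0.39 and 0.16.

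Copies of mitochondrial sequence in the nucleus can share these reads. Gm29216, Gm10925, Gm28661 and Gm28437, neighbouring unprocessed pseudogenes on chromosome 1 that match mt-Co1, mt-Atp6, mt-Co2 and mt-Co3, together held 23144 RPM in d16 Dppa5a-high to 30813 in naive cells. For each of these members, reads of member and copy cannot be assigned with certainty, since the copies held 64.4 to 88.7% as many reads as the member. The same holds for mt-Nd3, whose copy Gm28438 held 129% as many, mt-Nd4l (47.6%) and mt-Nd4 (18.5%). With the copies added, the log2 ratio of d16 Dppa5a-high to primed cells was -0.39 for mt-Atp6, -0.05 for mt-Co1, 0.00 for mt-Co2 and -0.11 for mt-Co3, close to the values without them. No copy of mt-Nd1 or mt-Nd2 was found at 97% identity over 80 bases. Only the 108 members with a transcript were searched, which left out Atp5md, Atp5pb, Cox6c2, Ndufa11b, Ndufb4c and Ndufs6b. Of the nuclear members searched, 15 had a near-identical pseudogene or fellow member, and in 5 of these it held over 10% as many reads as the member itself. Of these, Atp5g2 was the most uncertain, with 96.95%, and of the members past 1.5-fold Cox7c (26.5%) and Ndufb4 (36.6%) were affected. The copy of Ndufb4 is Ndufb4c, with 12466 reads beside 34052 of Ndufb4, so Ndufb4c is less certain still.

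The promoters of the nuclear members were examined because the factors NRF1 and GABPA are known to act on many genes of the respiratory chain. The 250 bases before the start were taken from RefSeq (GRCm38.p6) for 80 of the 101 members, matched by symbol, and searched on both strands. The letters GCGCANGCG of the NRF1 motif were found in 15 of 80 members (18.8%) and in 5.33% of all 27025 promoters. The letters CCGGAAGT of the GABPA motif were found in 3.75 and 2.93%, AAGATGGC of YY1 in 0 and 1.59%, and TCAAGGTCA of ESRRB in 1.25 and 0.366%. Of the 16 members past 1.5-fold upwards in d16 Dppa5a-high over Dppa5a-low cells, 13 had a promoter and 4 of these held the NRF1 letters (Ndufaf4, Ndufs6, Ndufa11 and Ndufb4), against 10 of 54 among the other members that passed. Of the 16, Ndufaf4, Cox7a1 and Ndufb4c passed the level rule only through Dppa5a-high cells and so had to be higher there. A difference between these shares was not tested. The promoters of Ndufaf4 (chr4:24897833-24898082, plus strand) and Ndufs6 (chr13:73328483-73328732, minus strand) are shown as members with the NRF1 letters, in capitals, where Ndufaf4 has 2 overlapping matches. That of Cox7a1 (chr7:30183921-30184170, plus strand), the member with the largest ratio among those that passed the level rule, is shown because it held none of the 4 motifs. The RefSeq start of Cox7a1 lies within the gene as located above, so the end of this window overlaps that gene. A match is a description of the sequence only.
Ndufaf4: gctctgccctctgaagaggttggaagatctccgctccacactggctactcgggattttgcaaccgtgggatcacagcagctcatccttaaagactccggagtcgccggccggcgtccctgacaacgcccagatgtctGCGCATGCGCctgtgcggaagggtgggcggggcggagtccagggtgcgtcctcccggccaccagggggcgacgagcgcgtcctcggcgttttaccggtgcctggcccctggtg
Ndufs6: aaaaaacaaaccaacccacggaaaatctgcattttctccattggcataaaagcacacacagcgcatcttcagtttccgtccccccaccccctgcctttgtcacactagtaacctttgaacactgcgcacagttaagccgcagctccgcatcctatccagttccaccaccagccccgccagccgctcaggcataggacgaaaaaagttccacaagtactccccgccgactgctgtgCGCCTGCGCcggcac
Cox7a1: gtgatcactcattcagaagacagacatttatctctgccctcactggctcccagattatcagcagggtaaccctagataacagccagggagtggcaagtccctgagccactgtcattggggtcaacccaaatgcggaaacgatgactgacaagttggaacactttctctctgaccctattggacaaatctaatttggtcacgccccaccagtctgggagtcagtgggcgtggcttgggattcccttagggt

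The factors themselves and the genes around the pathway were described from lists. Among 12 nuclear regulators, 4 passed the level rule in the d16 comparison. Of these, 3 passed only through Dppa5a-high cells and so had to be higher there, namely Esrrb (8.45 and 117 RPM in Dppa5a-low and Dppa5a-high cells), Pprc1 (24.8 and 54.0) and Gabpa (43.8 and 89.2). Their number is therefore no result. Esrrb is an orphan receptor of the naive network and was used among the naive markers above, Pprc1 is a coactivator of the PGC-1 family, and Gabpa is a subunit of the GABP factor. Yy1 was at 161 and 172 RPM. Between d16+10p and naive cells none of the 4 was past 1.5-fold.

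Of 22 genes for the expression and upkeep of mitochondrial DNA, 5 passed in the d16 comparison, of which Tfam and Lrpprc did so only through Dppa5a-high cells. Grsf1, which binds mitochondrial RNA, was at 77.3 and 153 RPM in Dppa5a-low and Dppa5a-high cells, and Ssbp1, the single-strand binding protein of mitochondrial DNA, at 63.4 and 119. Tfam, which packs mitochondrial DNA and starts its transcription, was at 43.0 and 65.9, while Slirp, at 90.1 and 121, and known to stabilise mitochondrial messengers, stayed below 1.5-fold. Tbrg4 was at 56.1 RPM in naive and 30.6 in primed cells, and at 29.0 in d16+10p cells. It passed the level rule in these comparisons only through naive cells and so had to be higher there.

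Mitochondrial ribosomal proteins, a group added after values were seen, are described by the rule on the mean of the 6 groups, since 12 of the 22 that were at least 1.5-fold higher in d16 Dppa5a-high than in Dppa5a-low cells passed the level rule only through the former. By the mean, 18 of 45 (40.0%) were higher and 2 (4.44%) lower, beside 23.1 and 18.8% of all genes, with a median of 0.51 beside 0.11. This mean includes the Dppa5a-high cells, so the count is not free of the same selection. Mrpl15 was at 65.5 and 182 RPM and Mrps31, under 50 RPM in Dppa5a-low cells, at 37.4 and 82.0. By the same rule, the median was -0.18 in primed against naive cells, beside 0.06 for all genes. There 2 (4.44%) were higher and 2 (4.44%) lower, beside 11.1 and 6.68% of all genes. In marker-positive cells this median was 0.002, beside 0.08 for all genes. In d16+10p against naive cells the median was -0.03 beside 0.01, with 1 (2.22%) higher and 0 lower, beside 1.63 and 1.04% of all genes.

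Among 21 electron carriers and exchangers, 8 passed in the d16 comparison, all at 50 RPM or more in both classes. Of these, 4 were at least 1.5-fold higher in Dppa5a-high cells and 1 lower, beside 24.9 and 24.1% of all genes, with a median of 0.39. Slc25a5, an ADP/ATP carrier of the inner membrane, was at 264 and 540.3 RPM in Dppa5a-low and Dppa5a-high cells, and its relative Slc25a4, the form of heart and muscle, at 389.6 and 257. The carriers thus went opposite ways, as they did between naive and d16+10p cells (428 and 632 for Slc25a5, 400.5 and 296 for Slc25a4). Cycs, the gene of cytochrome c, was at 136 and 246 RPM in the d16 cells. Of 14 enzymes of the citric acid cycle, 13 passed by the mean of the 6 groups and 3 (23.1%) were past 1.5-fold upwards, the same share as of all genes by that rule, with a median of 0.35 beside 0.11. Among them were Fh1 (52.5 and 101) and Idh3a (47.5 and 75.1). In primed against naive cells, all 14 enzymes passed and none was past 1.5-fold, with a median of -0.23. Of 35 assembly factors outside the prefixes, 7 passed in the d16 comparison, and Tmem126b, the one past 1.5-fold, did so only through Dppa5a-high cells (39.0 and 63.2). Cox17, which carries copper to complex IV, was at 199 RPM in naive and 129.5 in primed cells.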

How the data were processed

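Cells of 5 populations were tagged, pooled and captured in 1 BD Rhapsody library, with amplification of whole cDNA. The deposited values are raw counts, whole reads of a gene in a cell. According to the study's methods and the submitters' processing notes, the authors trimmed reads with cutadapt 2.10, mapped them with Bowtie2 2.3.4.1 to Ensembl release 100 transcripts, and removed barcodes below the knee plot and, as doublets, cells with the most ambiguous tags. No collapsing of molecules is described, so counts are reads.

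The counts were summed per population, 17245249 to 179944974 reads each, and given per 1000000 reads of all genes (RPM). Log2 ratios used a pseudocount of 1 RPM. Their intervals (95%, exact binomial) did not, so that at low levels a ratio can lie outside its interval. With 1 sample a population no test was run. The level rule was 50 RPM in either group and 100 reads over both. The rule on the mean asked for 50 RPM in the mean of the 6 groups instead. That mean includes the groups compared, so a gene that is high in only some groups can still pass by it. The text names all mitochondrial members, the 5 nuclear members furthest each way in each comparison, those past 1.5-fold, the listed alternative forms, and 2 genes each way per other list. Members and lists were chosen with earlier results of these data known.

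Copies were sought with BLAST+ 2.17.0 at 97% identity over 80 bases. TMM factors came from edgeR 4.0.16. Python 3.11.15, numpy 2.4.6, scipy 1.17.1 and pandas 2.3.3 were used, and the calculations were tested on simulated data. Of per-cell columns, 0 were left unused.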

Additional observations from a re-analysis of the deposited data

How the results depend on the processing

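Of 171 values under another setting, over 15 sums and counts, 87 moved by no more than the counting interval or, for counts, 1.5 times, 81 moved further and 3 changed sign. Values are log2 ratios of the sums unless called counts of nuclear members past 1.5-fold, and the cause of each shift was not tested. All 3 changes of sign concern the mitochondrial sum of d8 against primed cells, which was 0.019 with TMM scaling, 0.033 against marker-positive primed cells, and 0.036 against these without their Dppa5a-high cells. With TMM scaling the other sums were -0.23 (nuclear) and -0.21 (mitochondrial) in primed against naive, -0.013 (nuclear) in d8 against primed, 0.20 and 0.12 in d16 Dppa5a-high against primed, 0.35 and -0.10 in d16 Dppa5a-high against Dppa5a-low, and 0.051 and -0.13 in d16+10p against naive cells. In marker-positive cells they were -0.065 and -0.23 in primed against naive, -0.20 (nuclear) in d8 against primed, 0.049 and 0.17 in d16 Dppa5a-high against primed, and 0.025 and -0.16 in d16+10p against naive cells, with counts of 7 in d8 and 4 in d16 Dppa5a-high against primed cells. Averaging cells gave, in the order of comparisons used for TMM scaling, -0.16, -0.058, 0.23, 0.36 and 0.050 for the nuclear and -0.10, -0.084, 0.066, -0.12 and -0.12 for the mitochondrial sum, with counts of 1 in d8 against primed and 0 in d16+10p against naive cells. Thinning to 5000 reads gave -0.16, -0.076, 0.21, 0.35 and 0.049 for the nuclear sum, and for the mitochondrial sum -0.12, -0.077 and 0.064 in the first comparisons and -0.14 in d16+10p against naive cells, with the same counts of 1 and 0. Without mitochondrial reads in the denominator, the nuclear sum was -0.16 in primed against naive, 0.29 between the d16 classes and 0.017 in d16+10p against naive cells, and the mitochondrial sum was -0.14, -0.062, 0.078, -0.16 and -0.16 in the 5 comparisons. With the 4 nuclear copies of mitochondrial sequence, the mitochondrial sum was -0.16, -0.026, 0.013, -0.21 and -0.20. Dividing d16 at 500 RPM gave 0.15 and 0.079 against primed cells, and at 2000 RPM 0.18 and 0.061, with -0.15 for the mitochondrial sum between the d16 classes. Without the filter on low values the counts were 8 in primed against naive, 4 in d8 against primed and 4 in d16+10p against naive cells. At 200 RPM or more they were 3 in d16 Dppa5a-high against primed, 11 between the d16 classes and 0 in d16+10p against naive cells, where a pseudocount of 10 RPM also gave 0.

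A further 4 settings were chosen after seeing the data. Marker-positive primed cells without Dppa5a-high cells gave -0.066 and -0.23 against naive cells, -0.20 (nuclear) and a count of 7 in d8 against primed, and 0.051 and 0.17 in d16 Dppa5a-high against primed cells. Without cytosolic ribosomal protein genes in the denominator, the nuclear sum was -0.10, 0.14, 0.33 and 0.048 and the mitochondrial sum -0.071, 0.052, -0.12 and -0.13 in the comparisons other than primed against naive. With the level rule on the mean of the 6 groups the counts were 5, 0, 7, 15 and 1 in the 5 comparisons. Adding pseudogene copies gave -0.13 for the nuclear sum in primed against naive cells.

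No paired analysis was possible because each population is 1 sample. Leaving out each sample in turn was not run, for the same reason. The cap on mitochondrial reads and the presence of other cell types in every tag limit the levels, and members under 50 RPM were too rare for the level rule.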
